A study of Mus musculus with 6 samples.

Results

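Integrins are the surface receptors with which cells hold on to the matrix around them, and focal adhesions are the protein complexes that couple integrins to the actin cytoskeleton. RNA sequencing of MLO-Y4, an osteocyte-like line from mouse long bone, gave the levels of their transcripts. Osteocytes are the cells within bone that sense load. The genes described are those whose symbol in the deposited table names an integrin α or β chain, together with a named set of focal adhesion and caveola genes: Ptk2, Ptk2b, Src, Pxn, Vcl, Tln1, Tln2, Zyx, Ilk, Parva, Lims1, Fermt2, Tns1, Tns3, Bcar1, Cav1, Cav2 and Cavin1, which the table lists under its older symbol Ptrf. This gave 44 genes of 39174 in the table, made up of 18 α chains, 8 β chains and 18 others. In the flow group, fluid oscillated over 3 cultures at 10 dyn/cm² for 2 h, and the cells were lysed after 2 h more in fresh medium. The 3 non-flow control cultures were sham-treated in parallel. Cells of both groups grew in serum-containing medium on glass slides coated with type I collagen, and all came from this one line, so the replicates are cultures, which per the labels were collected on different days, and not animals. No label says which flow and control cultures share a day.

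Each integrin is a pair of 1 α and 1 β chain, and the pairing sets which ligand is bound. The β chain's short inner tail binds talin and kindlin, which switch the receptor to its active state. Talin and vinculin then carry force to actin, while the kinases FAK and Src and the adaptors paxillin and p130Cas pass the signal on. Caveolae are small pits of the plasma membrane built from caveolins and cavins, which flatten when the membrane is stretched. In bone, integrins and their adhesion complexes are studied as one way by which osteocytes feel fluid moving past their processes.

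Values are FPKM, read fragments scaled to transcript length and to the size of the library, as deposited by the authors. The steps of the lowest values gave depths of 5760000 to 19230000 reads in flow libraries and of 17910000 to 19010000 reads in the controls, with flow libraries 1 and 2 the shallowest at 11020000 and 5760000. Of 13 osteocyte and osteoblast markers, 8 had a mean of at least 1 FPKM, led by Gja1 and Pdpn, while Sost, Mepe and Fgf23, markers of mature osteocytes, were listed at 0 in every library and Dmp1 reached at most 0.0354 FPKM. The 6 measured leukocyte markers summed to 1.92 to 2.79 FPKM in flow and 1.44 to 3.33 FPKM in controls, nearly all of it Cd68, with Ptprc at most 0.0142 FPKM. Of 5 endothelial and 4 epithelial markers none reached 1 FPKM on average.

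Of the 8 β chains, 3 were present at high level, Itgb1, Itgb5 and Itgb7, and 5 had at most 11.8 FPKM in any library. Itgb1 (ENSMUSG00000025809, chromosome 8 at 128685654 to 128733200 of mm10), the chain shared by most matrix receptors, had 272, 262 and 200.2 FPKM in flow libraries 1 to 3 and 218, 211 and 204 FPKM in controls 1 to 3. It was the highest β chain in both groups, and flow library 3 lay below the controls while flow libraries 1 and 2 lay above them. Itgb5, which joins Itgav in a vitronectin receptor, had 162, 110.3 and 146 FPKM in flow and 147, 152 and 159 FPKM in controls. Itgb7 (chromosome 15 at 102215995 to 102231944), known as a chain of lymphocyte receptors, had 73.7, 109.6 and 107 FPKM in flow and 96.0, 136 and 115 FPKM in controls. The 3 control values of each of these chains did not overlap those of the next, so the order Itgb1, Itgb5, Itgb7 stood outside the spread of the controls, and the group means in flow had the same order. Itgb2, the β chain of leukocyte adhesion receptors, followed at 7.63, 5.13 and 11.1 FPKM in flow and 9.40, 5.77 and 11.8 FPKM in controls.

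The remaining β chains were too low to test. Itgb3, the partner of Itgav in the receptor described at attachment sites of osteocyte processes in bone, had 0.738, 0.280 and 1.51 FPKM in flow and 0.869, 0.675 and 1.31 FPKM in controls. Its level was above that of 3 reads, 0.0279 to 0.0933 FPKM, in every library, and its groups overlapped. Itgb4, which pairs with Itga6 in epithelia, averaged 0.577 ± 0.221 FPKM in flow and 0.693 ± 0.155 FPKM in controls (SD, n = 3 each). Itgb8, another partner of Itgav, averaged 0.565 ± 0.158 FPKM in flow and 0.409 ± 0.0780 FPKM in controls, with overlapping groups. Itgb6 was listed at 0 in all 6 libraries. As a share of the summed β FPKM, Itgb1 made up 49.7 ± 5.96% in flow and 43.1 ± 2.59% in controls. Itgb5 made up 28.4 ± 5.04% in flow and 31.2 ± 1.08% in controls, and Itgb7 19.8 ± 4.85% in flow and 23.5 ± 3.24% in controls. The groups overlapped for each of the 3 shares.

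The α chains were led by receptors for fibronectin, laminin and vitronectin. Itga5 (ENSMUSG00000000555, chromosome 15 at 103344286 to 103366763), which with Itgb1 forms the main fibronectin receptor, had 74.5, 66.2 and 88.7 FPKM in flow and 111, 98.9 and 87.5 FPKM in controls. Itga6, a laminin receptor chain, had 99.5, 71.9 and 83.4 FPKM in flow and 83.6, 71.3 and 83.9 FPKM in controls. Itgav, the chain of several receptors for RGD ligands such as vitronectin and osteopontin, had 40.9, 26.7 and 42.6 FPKM in flow and 47.4, 40.1 and 42.8 FPKM in controls. In controls Itga5 stood above Itga6 without overlap, and in flow the mean of Itga6 was the higher one, with overlapping values. Next came the laminin receptor chains Itga7, at 6.18 ± 0.306 FPKM in flow and 7.11 ± 0.908 FPKM in controls, and Itga3, at 3.72 ± 0.820 FPKM in flow and 4.66 ± 0.220 FPKM in controls. Itga2b, known from platelets, was the last tested α chain at 1.75 ± 0.671 FPKM in flow and 1.47 ± 0.358 FPKM in controls, while the other platelet markers Gp9, Pf4 and Gp1bb had at most 0.566 FPKM in any library.

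The other 12 α chains had a mean below 1 FPKM, among them all the α chains of collagen-binding integrins. Itga1 had 0.845, 0.690 and 0.520 FPKM in flow and 0.501, 0.534 and 0.654 FPKM in controls. Itga10 reached at most 0.397 FPKM, Itga2 at most 0.0864 FPKM and Itga11 at most 0.0303 FPKM in any library. These 4 chains together made up 0.482 ± 0.0867% of the summed α FPKM in flow and 0.391 ± 0.0276% in controls, in cells grown on type I collagen. Collagen receptors that are not integrins lie outside the set. Of these, Ddr2 averaged 103.8 ± 6.52 FPKM in flow and 105.7 ± 2.96 FPKM in controls. Ddr1 averaged 9.92 ± 2.11 FPKM in flow and 9.11 ± 0.420 FPKM in controls. Other annotations, the one with the largest part on the same strand, overlap 33.5% of the exon bases of Itga10, so its value is uncertain. Itga8, a partner of Itgb1 for RGD ligands, and Itga9 had at most 0.364 and 0.130 FPKM.

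Itgb7 and Itgb2 were present without matching levels of the α chains they are known to pair with. Itgb7 pairs with Itga4 or Itgae. Itga4 was listed at 0 in all 6 libraries, where 3 reads would have given 0.0163 to 0.0544 FPKM, and Itgae had 0.0250, 0 and 0 FPKM in flow and 0.108, 0.0305 and 0.0724 FPKM in controls. Itgb2 pairs with Itgal, Itgam, Itgax or Itgad. Itgam and Itgax were listed at 0 in all 6 libraries, Itgal had at most 0.543 FPKM and Itgad at most 0.223 FPKM. The exons of Itgb7 and Itgb2 overlap no other annotated gene. For Itgam, 68.7% of the exon bases lie in other annotations, the one with the largest part on its strand. In the other deposited table, Itgb7 had 64.4 to 101.8 FPKM in flow and 80.0 to 123 FPKM in controls, and Itga4 had at most 0.0473 FPKM. That table holds other values for some of the same libraries. Values per gene do not show which part of the Itgb7 transcript was read.

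**Figure D1:**
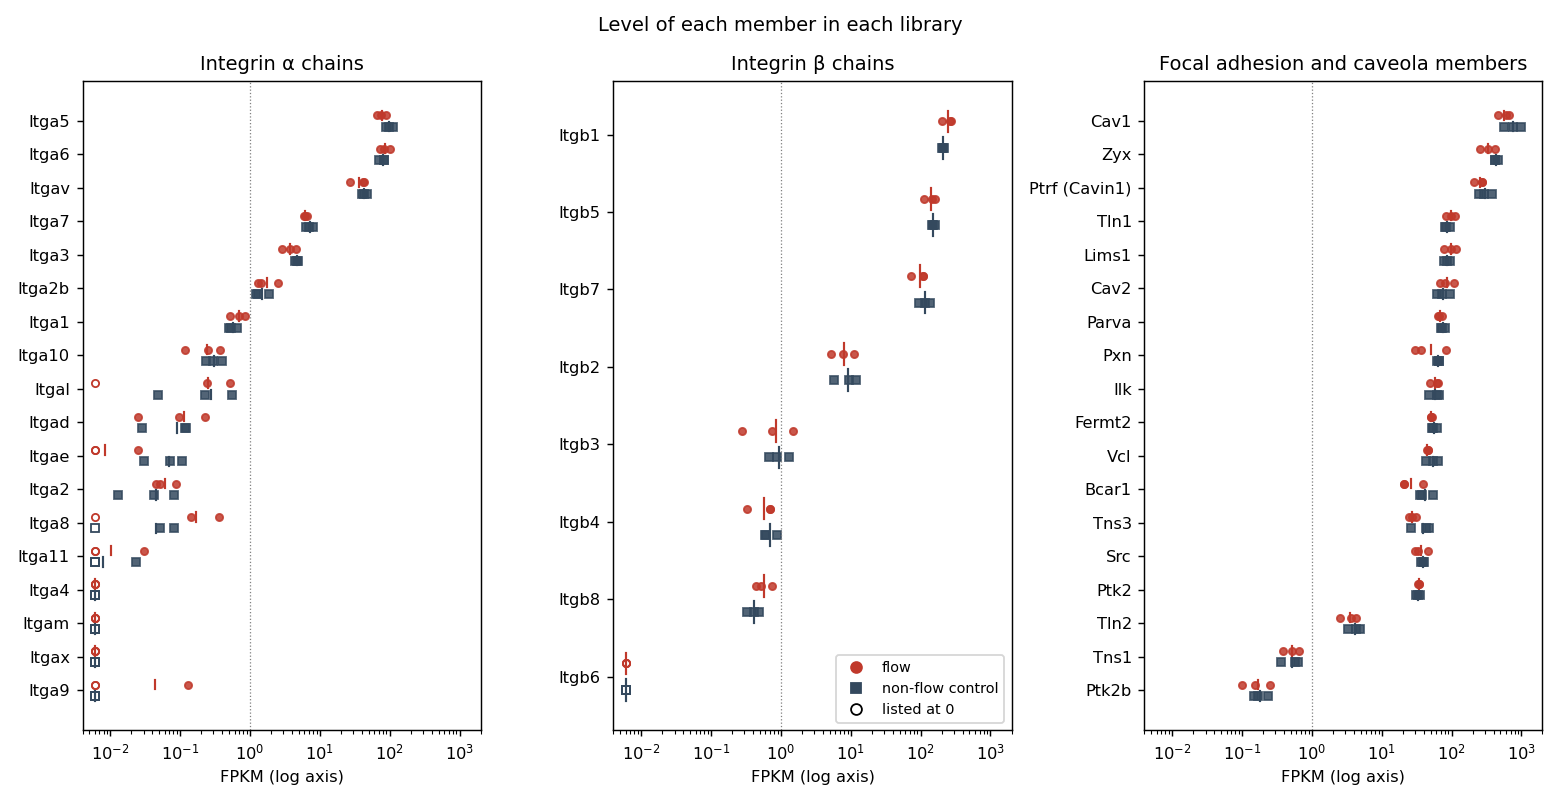
FPKM of each of the 44 genes in each library, on a log axis, with flow circles above non-flow control squares, group means as short vertical lines and values listed at 0 drawn as open symbols at the left edge. The dotted line marks 1 FPKM. The β chains Itgb1, Itgb5 and Itgb7 and the α chains Itga5, Itga6 and Itgav lie between 26.7 and 272 FPKM, and the collagen receptor chains Itga1, Itga2, Itga10 and Itga11 lie below 1 FPKM.

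Of the talins, the tensins and the FAK family kinases in the set, one gene of each carried nearly all of the transcript. Tln1, talin 1, had 83.5, 113 and 98.5 FPKM in flow and 94.1, 84.5 and 79.5 FPKM in controls, against 3.48 ± 0.898 FPKM in flow and 4.17 ± 0.826 FPKM in controls for Tln2 (SD, n = 3 each). Tns3, a tensin, had 31.4, 24.3 and 26.9 FPKM in flow and 47.2, 42.6 and 25.8 FPKM in controls, and Tns1 averaged 0.525 ± 0.137 FPKM in flow and 0.524 ± 0.148 FPKM in controls. Among the kinases, Ptk2, the gene of FAK, had 33.6, 34.7 and 34.0 FPKM in flow and 30.7, 33.4 and 35.6 FPKM in controls, and its relative Ptk2b had at most 0.250 FPKM. Src had 33.0, 30.3 and 46.1 FPKM in flow and 36.6, 39.8 and 39.2 FPKM in controls. For Ptk2 and Src the groups overlapped, and flow library 3 held the highest Src value of all 6.

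Zyx, zyxin, a protein that gathers at adhesions under tension, had the highest control mean of the focal adhesion genes in the set, with 252, 333 and 416.5 FPKM in flow and 420.4, 460.0 and 420.5 FPKM in controls. The 3 flow values lay below the 3 controls, though flow library 3 lay just under the lowest control. Vcl, vinculin, had 45.5, 44.5 and 45.3 FPKM in flow and 63.2, 54.6 and 42.4 FPKM in controls. Other genes share 25.5% of the exon bases of Vcl, the largest part being that of Ap3m1 on the opposite strand. The use of strand in counting is not given in the sources used here. Fermt2, kindlin 2, had 51.6, 50.8 and 51.8 FPKM in flow and 62.3, 54.9 and 53.2 FPKM in controls, again with no overlap between the groups. In Vcl and Fermt2 the flow libraries lay closer together than the controls did.

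The 3 genes of the complex of Ilk, Lims1 and Parva, which sits on β tails, were all present, with the lowest mean in both groups for Ilk. Lims1 (PINCH1) had 98.4, 116 and 78.0 FPKM in flow and 84.6, 93.6 and 77.7 FPKM in controls. Parva, α-parvin, had 72.8, 63.7 and 65.8 FPKM in flow and 79.7, 71.4 and 72.2 FPKM in controls, with flow library 1 inside the control range. Ilk averaged 58.4 ± 7.57 FPKM in flow and 58.6 ± 10.0 FPKM in controls, but 89.7% of its annotated exon bases overlap other genes, mainly Taf10 on the opposite strand, so its value is uncertain. Of the adaptors, Pxn, paxillin, had 30.2, 37.0 and 83.8 FPKM in flow and 66.2, 62.1 and 66.1 FPKM in controls. Flow libraries 1 and 2 lay below the controls for Pxn and flow library 3 lay above them. Bcar1, the gene of p130Cas, whose stretching exposes sites for Src, had 20.6, 20.8 and 38.5 FPKM in flow and 37.4, 35.5 and 54.1 FPKM in controls.

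None of the 26 testable genes differed between flow and control by limma over all 11957 genes at an adjusted p under 0.05. The percentage of all tested genes that passed was 0.00836% in each direction, and a count of 0 in 26 genes is near that background. Without adjustment, 0 genes were higher and 1 was lower at p under 0.05, beside 3.7% and 4.82% of all genes. In 0 genes did all flow values lie above all controls, and in 2 genes, Zyx and Fermt2, all lay below, beside 7.12% and 8% of all genes. In the other deposited table both of these overlapped. Itga5 was the 1 of 27 tested members there with all flow values below all controls, beside 5.91% of all genes. Of the 26 log2 fold changes 7 were positive and 19 negative, with a median of -0.17, while 51.7% of all genes were negative, with a median of -0.011. In bulk RNA, fewer cells of a kind and less RNA per cell cannot be told apart. With 3 cultures in each group, a p-value reflects the variation among those cultures.

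The lowest unadjusted p belonged to Itga5, at a log2 fold change of -0.38 with SE 0.14 (limma, adjusted p = 0.559). Its 95% interval ran from -0.73 to -0.024, and flow library 3 lay inside the control range. Bcar1 had the most negative fold change, -0.69 with SE 0.29 (adjusted p = 0.559), followed by Pxn at -0.50 with SE 0.36 (adjusted p = 0.622), Tns3 at -0.43 with SE 0.24, Zyx at -0.41 with SE 0.19 and Cav1 at -0.41 with SE 0.23. At the positive end, Itgb1 had 0.20 with SE 0.13 (adjusted p = 0.599) and Tln1 had 0.19 with SE 0.14 (adjusted p = 0.627). Ptk2 had the narrowest interval, from -0.18 to 0.26, and Itgb2 and Pxn had wide ones, of -0.96 to 0.63 and -1.38 to 0.38.

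**Figure D2:**
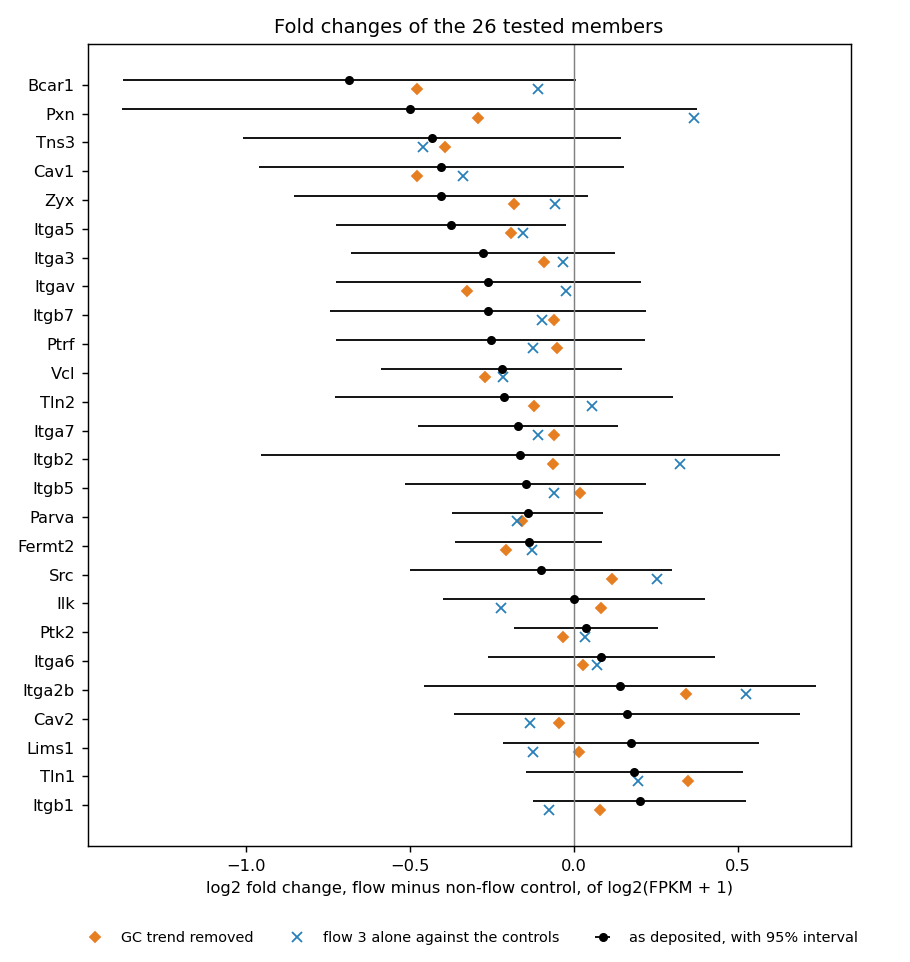
Log2 fold change, flow minus non-flow control on log2(FPKM + 1), of the 26 tested genes. Black points carry the 95% interval of the limma fit, orange diamonds the value after removal of each library's GC trend, and blue crosses flow library 3 alone against the 3 controls. The interval of Itga5, from -0.73 to -0.024, is the one that leaves out 0, and the blue cross of Pxn lies at 0.37, opposite to its black point.

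Which flow library stood apart from the others differed between members. It was flow library 3 for Pxn, Bcar1, Src and Itgb1, flow library 2 for Cav1, Ptrf, Itgav and Itgb5, and flow library 1 for Itgb7. The median deviation of the 26 genes from their own mean over 6 libraries was -0.059, -0.18 and 0.021 in flow libraries 1 to 3 and 0.18, 0.036 and 0.056 in controls 1 to 3, on the log2(FPKM + 1) scale. Without flow library 3, Itgb1 and Lims1 had both flow values above all controls, and Bcar1, Fermt2, Itga3, Itga5, Itga7, Pxn, Src and Zyx had both below, which is 7.69% and 30.8% of the 26 beside 22.8% of all genes in each direction. Limma then gave 2 genes higher and 6 lower at an unadjusted p under 0.05, or 7.69% and 23.1% of the 26, beside 13.3% and 13.1% of all genes, and the smallest adjusted p among the 26 was 0.0695, that of Pxn, at a log2 fold change of -0.93. Over the other alternatives the adjusted p of Pxn ran from 0.486 to 0.863. With flow library 3 alone against the controls, the log2 fold change was 0.37 for Pxn, -0.11 for Bcar1, -0.057 for Zyx, -0.15 for Itga5 and -0.076 for Itgb1. Tns3, Cav1 and Vcl had -0.46, -0.34 and -0.22 in that library. Without control 1 these were closer to 0, at -0.27 for Tns3, -0.21 for Cav1 and -0.092 for Vcl. Cav1 had -0.26 without flow library 2, and Tns3 and Vcl had -0.69 and -0.37 without control 3. The count of genes with all flow values below all controls also depended on other libraries. It was 7 without control 2, 6 without control 3, 4 without flow library 1 and 3 without control 1. The shares of all genes were 12.7%, 13.3%, 10.9% and 11.8%. Zyx and Fermt2 are in each of these counts by construction, since their groups do not overlap with all libraries in. The median log2 fold change of the 26 was -0.077 without flow library 2 and -0.10 without control 1. It was -0.25 without flow library 3, -0.185 without flow library 1, -0.174 without control 2 and -0.184 without control 3, beside -0.167 with all libraries.

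**Figure D3:**
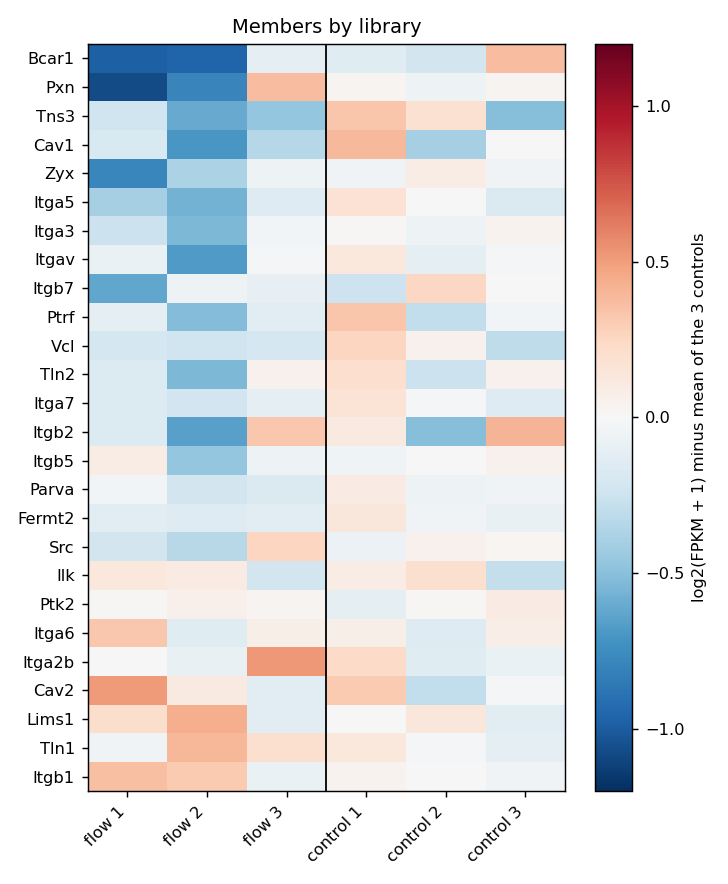
Each of the 26 tested genes in each library, as log2(FPKM + 1) minus the mean of the 3 controls, with flow libraries on the left. Blue is below and red above the control mean. Bcar1 and Pxn are lowest in flow libraries 1 and 2, and in flow library 3 Pxn lies above the controls.

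Flow libraries 1 and 2 differed from the other 4 libraries by GC content over all genes. Among the 2266 tested genes with 55% to 60% GC in their transcripts, the median deviation was -0.18 and -0.22 in flow libraries 1 and 2, 0.088 in flow library 3 and 0.093 to 0.10 in controls. Among the 2259 genes with 40% to 45% GC it was 0.16 and 0.20 in flow libraries 1 and 2, -0.11 in flow library 3 and -0.10 to -0.077 in controls. Bcar1, Pxn, Zyx and Itga5 have 58.6%, 58.7%, 60.2% and 57.0% GC, and Itgb1, Lims1 and Cav2 have 44.7%, 43.1% and 41.1%. Across the 26 genes fold change and GC content had a Pearson correlation of -0.47 and a Spearman correlation of -0.46, as a description of genes that share the same 6 libraries. Over all 11841 tested genes with a GC value these were -0.30 and -0.56. With each library's GC trend removed, the median of the 26 was -0.063, and 18 of them were negative, beside 6006 of 11841 genes. The log2 fold changes were then -0.48 for Bcar1, -0.29 for Pxn, -0.18 for Zyx, -0.19 for Itga5 and 0.079 for Itgb1. Those of Cav1, Tns3, Vcl and Tln1 were -0.48, -0.39, -0.27 and 0.35.

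**Figure D4:**
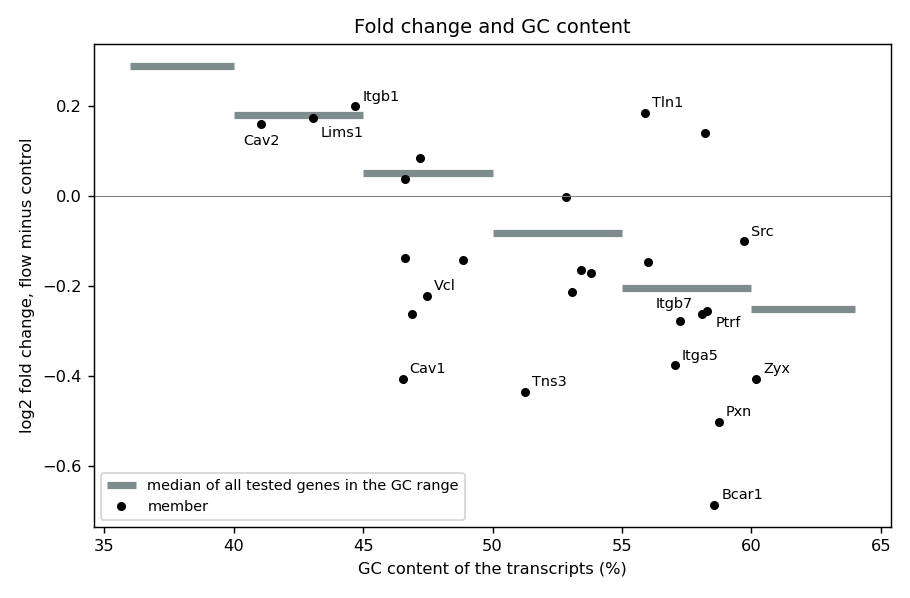
Log2 fold change, flow minus non-flow control, against the GC content of the transcripts for the 26 tested genes as points, with grey bars for the median of all tested genes in each GC range. The grey bars go from 0.29 below 40% GC to -0.25 above 60% GC. Bcar1, Pxn, Cav1 and Tns3 lie below the bar of their range and Tln1 above it.

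Caveola transcripts were among the most abundant of the set. Cav1 (ENSMUSG00000007655, chromosome 6 at 17306335 to 17341452), the main caveolin, had 659, 462 and 592 FPKM in flow and 981, 569 and 753 FPKM in controls and ranked 123rd of all genes in controls. Ptrf, the gene of the coat protein cavin 1, had 277, 208 and 275 FPKM in flow and 377, 244 and 292 FPKM in controls. Cav2, a partner of Cav1 in the caveola coat, had 107, 81.1 and 68.3 FPKM in flow and 93.4, 61.1 and 74.1 FPKM in controls. For each of the 3 the groups overlapped, and the fold changes were -0.41, -0.25 and 0.16 with adjusted p = 0.566, 0.633 and 0.763 (limma).

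Cav1 and Cav2 lie on the same strand, 17219 bases apart, and their ratio within a library did not overlap between the groups. Cav1 FPKM over Cav2 FPKM was 6.15, 5.70 and 8.67 in flow and 10.5, 9.31 and 10.2 in controls. The 3 flow ratios lay below the 3 control ratios, and the exact permutation test cannot give a two-sided p under 0.1 with 3 against 3, so no p is given. This ratio was one of 9 between pairs of members and is named after its values were seen. That of Zyx over Tln1 did not overlap either, at 3.02, 2.93 and 4.23 in flow and 4.47, 5.44 and 5.29 in controls. Ratios of gene pairs outside the set were not computed, so no background share stands beside these ratios. Among single genes, 7.12% had all flow values above all controls and 8% had all below. A scaling of whole libraries cannot move such a ratio, but the transcripts differ in GC content, at 46.5% for Cav1 and 41.1% for Cav2. The difference of their log2 fold changes was -0.57 as deposited and -0.44 with the GC trends removed. In the other deposited table the ratios of Cav1 over Cav2 were 6.17, 5.70 and 8.98 in flow and 8.28, 9.04 and 10.0 in controls, so that there the groups overlapped. The ratio of Zyx over Tln1 was not computed there. Fold changes of Zyx and Tln1 were -0.18 and 0.35 with the GC trends removed, and -0.38 and 0.095 in the other table.

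**Figure D5:**
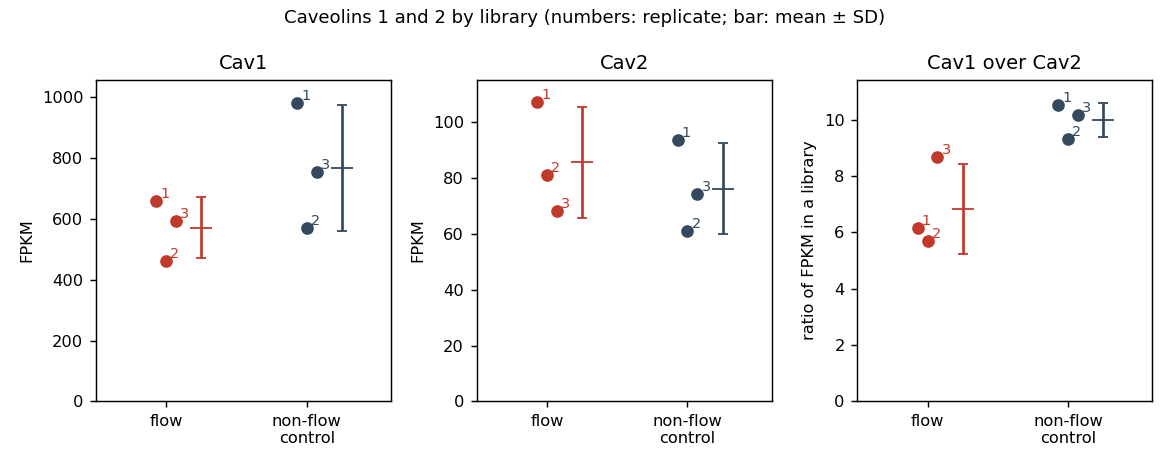
FPKM of Cav1 and of Cav2 and their ratio within each library, with flow left of non-flow control. Points are libraries with their replicate number, and bars give the mean ± SD. The flow ratios of 6.15, 5.70 and 8.67 lie below the control ratios of 10.5, 9.31 and 10.2, with flow library 3 nearest to the controls.

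Promoter windows from RefSeq (GRCm38.p6, 250 bases before to 50 after a start) were at hand for 31 of the 44 genes, in 39 windows. They were searched on both strands for the CArG box of the actin-responsive factor SRF, for GGAATG, the letters bound by the TEAD partners of YAP, for TGAGTCA, those of AP-1, and for GGGCGG, the GC box. The CArG box stood in 3 of the 39 windows (7.69%), those of Vcl, Fermt2 and Itgb6, beside 1.63% of all 32851 windows. GGAATG stood in 12.8% of windows beside 14.7% of all, TGAGTCA in 10.3% beside 5.2%, and GGGCGG in 59% beside 35.7%. The windows of the set had a median GC content of 64.3%, and all windows one of 52.7%. Vcl and Fermt2 are printed because they are the 2 tested genes with a CArG box, and Cav1 and Cav2 because the ratio of these neighbours is given above. Itgb7 is printed because its level was high while its partners were near 0. Capitals mark the CArG box in Vcl and Fermt2, the GC boxes in Cav1, and the GC boxes and AP-1 letters in Cav2. In Cav2, 2 GC boxes overlap by a base, and in Itgb7 none of the 4 motifs was found. A match describes letters and does not show binding. The windows are chr14:20929148-20929447 on the plus strand for Vcl, chr14:45530016-45530315 on the minus strand for Fermt2, chr6:17306085-17306384 on the plus strand for Cav1, chr6:17280935-17281234 on the plus strand for Cav2 and chr15:102231886-102232185 on the minus strand for Itgb7.
Vcl: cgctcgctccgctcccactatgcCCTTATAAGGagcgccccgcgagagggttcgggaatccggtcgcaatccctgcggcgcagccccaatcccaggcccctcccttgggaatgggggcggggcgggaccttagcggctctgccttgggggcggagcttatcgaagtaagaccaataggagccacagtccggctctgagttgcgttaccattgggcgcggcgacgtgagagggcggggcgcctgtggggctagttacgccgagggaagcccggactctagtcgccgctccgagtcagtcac
Fermt2: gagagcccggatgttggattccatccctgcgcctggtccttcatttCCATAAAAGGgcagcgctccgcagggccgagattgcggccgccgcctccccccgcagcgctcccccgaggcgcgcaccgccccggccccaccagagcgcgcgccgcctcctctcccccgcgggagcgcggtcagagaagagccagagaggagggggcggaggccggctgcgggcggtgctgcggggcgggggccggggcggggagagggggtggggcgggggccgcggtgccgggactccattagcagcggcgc
Cav1: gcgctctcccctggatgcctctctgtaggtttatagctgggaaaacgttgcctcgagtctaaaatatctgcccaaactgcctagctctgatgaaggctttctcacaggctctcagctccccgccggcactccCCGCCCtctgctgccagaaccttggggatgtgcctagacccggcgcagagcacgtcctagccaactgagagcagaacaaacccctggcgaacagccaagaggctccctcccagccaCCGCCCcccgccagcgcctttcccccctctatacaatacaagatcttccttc
Cav2: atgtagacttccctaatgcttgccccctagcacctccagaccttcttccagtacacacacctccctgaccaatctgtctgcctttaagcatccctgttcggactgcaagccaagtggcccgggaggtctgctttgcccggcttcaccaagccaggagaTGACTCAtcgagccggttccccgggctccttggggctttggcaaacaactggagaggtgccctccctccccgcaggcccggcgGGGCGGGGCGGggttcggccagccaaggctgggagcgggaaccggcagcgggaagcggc
Itgb7: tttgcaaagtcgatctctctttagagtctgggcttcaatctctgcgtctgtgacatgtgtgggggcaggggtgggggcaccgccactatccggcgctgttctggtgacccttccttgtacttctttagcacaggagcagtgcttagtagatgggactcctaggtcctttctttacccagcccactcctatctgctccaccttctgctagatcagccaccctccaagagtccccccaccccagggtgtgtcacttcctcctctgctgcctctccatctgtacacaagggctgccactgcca

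Ligands of these integrins and other adhesion components, taken from 3 lists of genes outside the set, gave no call over all genes either. Of 28 tested ligands, 1 was higher and 4 were lower at an unadjusted p under 0.05, beside 3.7% and 4.82% of all genes. Fold changes were positive in 9 and negative in 19, with a median of -0.19, beside 51.7% negative over all genes. The most abundant, Spp1 (osteopontin), had 7851, 8360 and 6445 FPKM in flow and 6868, 7054 and 6944 FPKM in controls. Fn1, fibronectin, the ligand of Itga5 with Itgb1, had 971, 1185 and 1037 FPKM in flow and 1282, 1113 and 1075 FPKM in controls. Both overlapped between groups. Thbs1, thrombospondin 1, had 24.7, 20.9 and 27.0 FPKM in flow and 65.4, 40.9 and 57.2 FPKM in controls, with no overlap and a log2 fold change of -1.12, SE 0.19 (limma, adjusted p = 0.559). The other lower ligands were Col1a2 at -0.26, Lamb2 at -0.40 and Ctgf at -0.80, and the higher one was Vcam1, the ligand of Itga4 with Itgb1, at 0.54. Ctgf, a matricellular protein, had 347, 228 and 146 FPKM in flow and 361, 419 and 407 FPKM in controls, and is named after its values were seen.

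Of 56 tested other adhesion components, 4 were higher and 5 lower at an unadjusted p under 0.05, beside the same 3.7% and 4.82% of all genes, with a median log2 fold change of -0.032. Tgfb1i1 (Hic-5), a relative of paxillin, had 28.7, 33.3 and 38.7 FPKM in flow and 52.9, 51.5 and 44.6 FPKM in controls, with no overlap (-0.56, SE 0.14, limma, adjusted p = 0.559). Actn4, an actin cross-linker, had 207, 199 and 254 FPKM in flow and 324, 299 and 269 FPKM in controls, also with no overlap (-0.44, SE 0.13). The actin-associated Palld had -0.51, and the zyxin relative Lpp had 0.44. Of 9 tested other caveola genes none had an unadjusted p under 0.05, and the median was -0.28. Fold changes were positive in 3, Pacsin2, Ehd4 and Sdpr, at 0.0092 or less, and negative in 6, beside 51.7% negative over all genes. Ehd2, which holds caveolae at the membrane, had 71.7, 48.4 and 75.4 FPKM in flow and 114, 68.7 and 84.1 FPKM in controls, with overlapping groups. The dynamin Dnm2 had -0.28, Pacsin3 -0.38 and Murc, the table's name for cavin 4, -0.39. In the other deposited table these were -0.14, -0.031 and -0.44. With the GC trends removed the medians of the 3 lists were -0.033, -0.0019 and -0.12.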

How the data were processed

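Per the submitters' processing notes, reads were handled with CASAVA 1.8.2, TopHat2 2.0.9 and Cufflinks 2.2.1 on build mm10. The sources used here do not state the annotation, filters or strand setting. The authors deposited 2 tables of FPKM with 1 column per library. All 6 columns of the one tested name a library title. In the other, 2 flow columns match no title and were used as members of the flow group. Its remaining columns carry titles of the same libraries as the one tested, so the 2 tables are not separate sets of samples. Where a gene ID was repeated the entry with the highest mean was kept. Neither table holds counts. Depth was estimated from FPKM multiplied by transcript length minus 200 nt, in genes with 1 transcript, where low values gather at that of 1 read. Depths and limits of 3 reads cover counting error only.

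Genes averaging 1 FPKM or more over the 6 libraries entered limma 3.58.1 (R 4.3.3) as log2(FPKM + 1), with eBayes with trend, two-sided, no covariate, Benjamini-Hochberg adjustment over all genes tested and a threshold of 0.05. The fit was tested on simulated data. Fold changes on this scale understate changes of low genes. GC content, coordinates (1-based) and exon overlaps came from GENCODE M21, of the mm10 assembly. The GC alternative removed a lowess trend from each library. Members and lists were chosen with earlier results of these data known. Values per library are given for members called, those with no overlap between groups, the highest chains and 10 fixed genes. They are also given for the 10 members with the smallest p, except Itga3, which has mean and SD. From each other list up to 4 genes with the smallest p are named, plus Fn1 and Spp1, some by fold change alone. Others, and the promoters printed, were chosen after values were seen.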

Additional observations from a re-analysis of the deposited data

How the results depend on the processing

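Under the 18 alternatives no member was called by limma, and 13 of the 26 tested members kept the sign of their fold change in all of them: Bcar1, Cav1, Fermt2, Itga3, Itga5, Itga7, Itgb7, Parva, Ptrf, Tln1, Tns3, Vcl and Zyx. Other filters on level or gene type, the fit without the variance trend and the replicate block alone leave fold changes unchanged. Such settings could not turn a sign, and the block with GC removal repeats the values of GC removal. All genes called numbered 2, against 4 with a pseudocount of 0.1 or no filter, 0 in protein-coding genes alone (with or without GC removal), 3 in the other deposited table, 76 for flow library 3 alone against the controls (that library is then assumed to vary like the controls), and 3 to 14 on leaving out a library. Members lower at an unadjusted p under 0.05 numbered 1 (beside 4.82% of all genes). They numbered 2 with a pseudocount of 0.1 (4.83% of all genes) or a mean of at least 5 FPKM (5.09%), and 3 in protein-coding genes alone (5.38%). The number was 0 with the GC trend removed (3.34%), without the variance trend (4.39%) and with GC removal in protein-coding genes (3.4%). On leaving out a library it was 0 to 6 (2.48% to 13.1% of all genes). Members higher numbered 0 (beside 3.7% of all genes), against 1 with GC removal in protein-coding genes (3.04%). Counts of members at an unadjusted p, higher or lower, are left out for flow library 3 alone, where the flow group has 1 library. On leaving out a library they numbered 0 to 2 (1.51% to 13.3% of all genes). With no filter on low values, 3 of 40 members were lower without overlap (Fermt2, Itgae and Zyx), or 7.5% beside 6.95% of all genes. Itgae had at most 0.108 FPKM. Non-overlapping members were 1 higher (Itgb4) and 1 lower (Itga5) in the other table. That is 3.7% of its 27 tested members each, beside 6.65% and 5.91% of all genes. For flow library 3 alone they were 4 higher and 5 lower (15.4% and 19.2% of members, beside 23.6% and 25.5% of all genes). On leaving out a library they were 0 to 2 higher and 2 to 8 lower (9.93% to 22.8% and 10.9% to 22.8% of all genes). The lower limit of 2 is Zyx and Fermt2, which stay without overlap whichever library is left out. The GC alternative in protein-coding genes was added after the data were seen.

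No label pairs the libraries. Deviations of flow and control libraries with adjacent titles correlated at 0.043, 0.023 and 0.064, and control 2 correlated more with flow library 1 than with its adjacent flow library 2. With adjacent titles as replicate block, members lower at an unadjusted p under 0.05 numbered 3, with or without GC removal, beside 6.6% of all genes, or 5.4% with GC removal, and all genes called numbered 1, or 0 with GC removal.

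Some signs turned. With the GC trend removed, with or without the block, the median was -0.063, and Cav2 had -0.044, Ptk2 -0.032, Itgb5 0.019, Src 0.12 and Ilk 0.083. In protein-coding genes with GC removal these were -0.065, -0.046, -0.036, 0.018, 0.11 and 0.080, and Spp1 had -0.0018. In the other table Itgav had 0.019, Itga6 -0.0017, Src 0.16 and Ilk 0.024. For flow library 3 alone Cav2 had -0.13, Itgb2 0.33, Lims1 -0.12, Itgb1 -0.076, Src 0.25, Pxn 0.37, Tln2 0.055 and Spp1 -0.11. On leaving out a library the ranges were -0.012 to 0.32 for Cav2, -0.42 to 0.082 for Itgb2, -0.016 to 0.088 for Ptk2, -0.26 to 0.013 for Itgb5, -0.035 to 0.20 for Itga6, -0.28 to 0.018 for Src, -0.14 to 0.11 for Ilk and -0.050 to 0.26 for Itga2b. Apart from settings that test fewer genes or libraries, the cause was not tested. Flow library 2, the shallowest, limits the low chains most: 3 reads per kilobase there are 0.521 FPKM, against 0.156 FPKM in flow library 3.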

Other observations

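The other deposited table held 2 flow columns that match no library title, and its remaining columns carry titles of the same libraries as the tested table. Its values gave lower depths, of 690000 to 4720000 reads. Itgb4 was tested there and had 1.597, 1.09 and 1.25 FPKM in flow and 0.811, 0.646 and 0.746 FPKM in controls, with no overlap, whereas its groups overlapped in the table tested above. Itgb2 had 10.3, 3.96 and 11.5 FPKM in flow and 35.4, 9.26 and 9.81 FPKM in controls, and the highest of these values belonged to control 1, the shallowest library of that table at 690000 reads.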
